A study of Homo sapiens with 12 samples.

Results

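The 40 genes described here encode proteins that act in G2 and mitosis. They were chosen by gene symbol, and all 40 were found among the 26231 named genes of the deposited normalized table. All 40 had enough reads to be tested, among 11968 genes in all. RNA came from the 697 (EU3) line, a human B-cell precursor leukaemia line, of which only the ALDH+ fraction, the cells with high aldehyde dehydrogenase activity, was used. The libraries read the 3′ end of each transcript, so that a gene is counted mainly in its last exon. Each numbered set was a separate selection of ALDH+ cells with its own doxycycline treatment, and replicates are therefore separate sorts of 1 cell line.

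SH2 cells carry an shRNA against IGF2BP1 that doxycycline switches on together with an eGFP reporter. The groups were untreated SH2 cells (sets 1 to 4, n = 4), doxycycline-treated SH2 cells sorted for the reporter (sets 1 to 4, n = 4), untreated control cells (sets 2 and 4, n = 2) and doxycycline-treated control cells (sets 2 and 4, n = 2). By the labels, all 4 groups share the cell line, the ALDH+ selection and the growth medium with serum. The labels name the last 2 groups as a control for doxycycline and do not state whether these cells hold the scrambled shRNA. They give no dose and no duration. In SH2 cells, doxycycline and the reporter sort come together and cannot be told apart.

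Cells enter mitosis when cyclin-dependent kinase 1, bound to A-type and B-type cyclins, is freed from inhibition by CDC25 phosphatases. Polo-like and Aurora kinases, kinesin motors and spindle proteins then build the spindle, and the spindle checkpoint holds back the anaphase-promoting complex until every chromosome is attached. Many of these genes are transcribed mainly in G2 and M, and their RNA is widely used as a sign of cycling cells, also in leukaemia. In a bulk library, fewer cells in G2 or mitosis and less RNA of these genes per cell cannot be told apart.

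IGF2BP1, the RNA-binding protein that the shRNA targets, was measured first as a check of the labels. It stood at 21.7, 30.5, 39.2 and 32.9 CPM (counts scaled to a common library size) in untreated SH2 cells of sets 1 to 4 and at 6.28, 14.8, 25.0 and 16.2 CPM in treated SH2 cells, lower with doxycycline in 4 of 4 sets, with a fitted log2 fold change of -0.99 ± 0.43 (SE) and an adjusted p of 0.983. Control cells had 1.42 and 0 CPM untreated and 0.961 and 0.382 CPM treated, from 3, 0, 3 and 1 counts, and the difference from SH2 cells was called without doxycycline (adjusted p = 0.000915). Reads in genes ran from 2210291 to 3370952 per library. The B-cell genes CD79A and CD79B had at least 319 counts in every library. Among other B-cell genes, VPREB1 had 55 to 1147, IGLL1 101 to 1166, EBF1 61 to 329 and CD22 125 to 2264. CD22 was lower in SH2 than in control cells (edgeR, log2 -1.75 untreated and -2.88 treated, adjusted p = 0.0307 and 0.00122). Of 8 B-cell genes, 2 were called in that comparison untreated and 1 treated, beside 7.84% and 11.1% of all genes. HBB and the myeloid genes other than LYZ were near 0. LYZ had 9, 16, 22 and 3 counts in untreated SH2 cells of sets 1 to 4. It had 2, 15, 8 and 0 in treated SH2 cells and 0 or 1 in control cells. The T-cell genes CD3D, CD3E and CD3G summed to 541.9 and 535.8 CPM in the control libraries of set 2, against 36.9 and 13.8 in those of set 4 and 23.8 to 103 in SH2 cells. Their part in any difference that involves control cells was not tested. The labels name 1 line for both kinds of cell. Given these levels of IGF2BP1, CD22 and T-cell genes, it is uncertain that control and SH2 cells are 1 line apart from the shRNA. Every value that sets SH2 against control cells carries that limit.

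The clearest feature of the 40 genes was a difference between sets and not between treatments: in SH2 cells of set 4 they were low with and without doxycycline. The summed level of the 40 genes was 5449, 5483, 4430.1 and 1701 CPM in untreated SH2 cells of sets 1 to 4 and 6394, 6150.0, 5612 and 2286 CPM in treated SH2 cells. Control cells had 3992 and 2206 CPM untreated and 4522 and 3366 CPM treated in sets 2 and 4. Untreated SH2 cells of set 4 had the lowest sum of the 12 libraries, and treated SH2 cells of set 4 the lowest but for these and untreated control cells of set 4. Fitted over both treatments, all 40 genes were lower in set 4 than in the mean of the other 3 SH2 sets, with a median log2 difference of -1.81, or 3.52-fold, beside 0.00 for all genes tested.

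**Figure D1:**
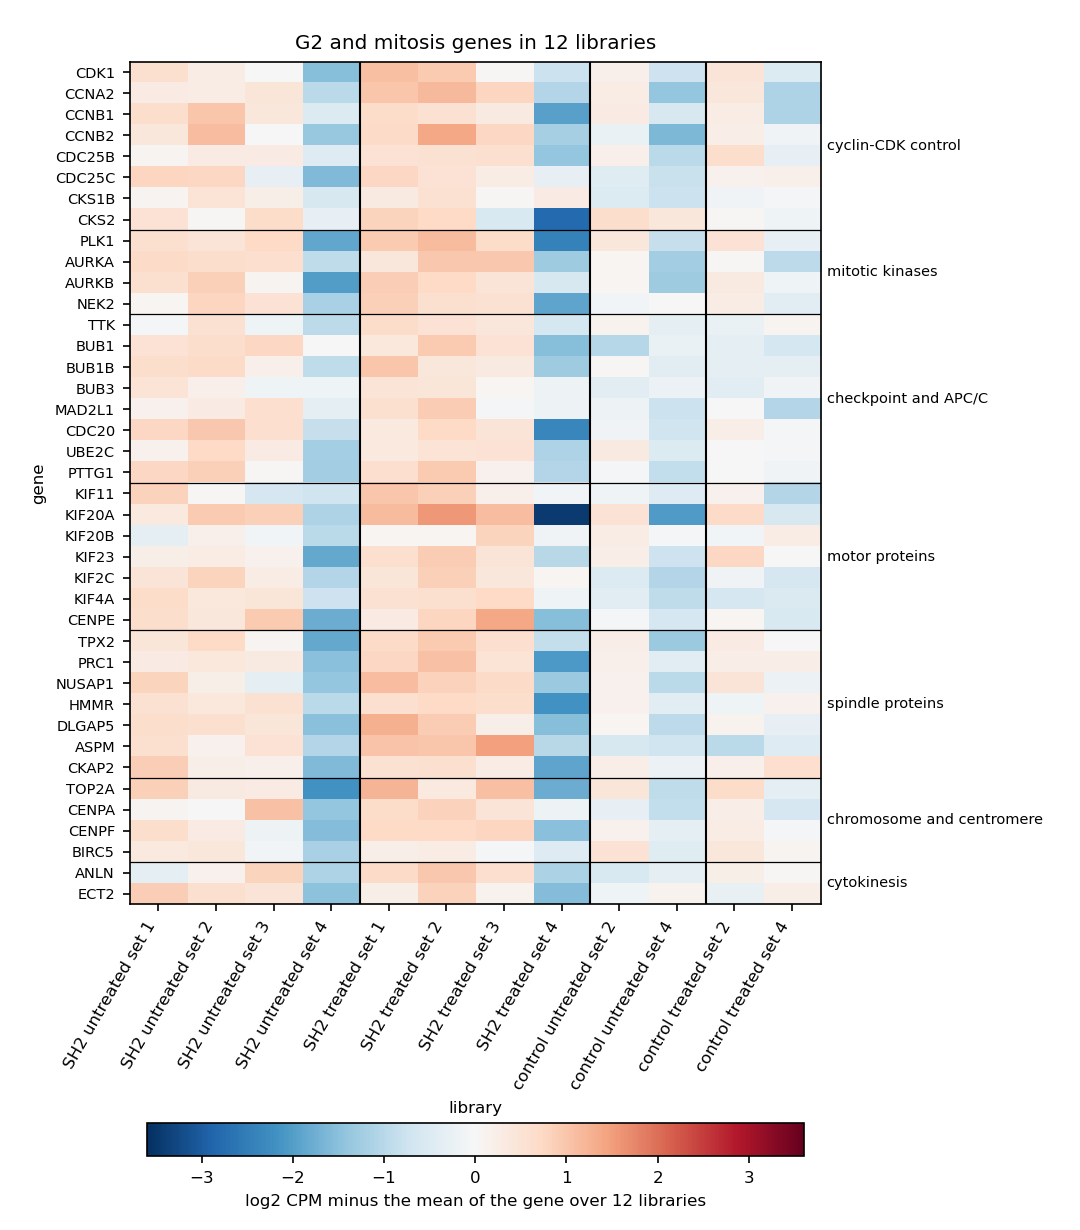
Each row is 1 of the 40 G2 and mitosis genes, ordered by role, and each column 1 of the 12 libraries. Colour gives log2 CPM minus the gene's mean over the 12 libraries, blue for lower and red for higher; the columns of SH2 set 4 are blue for most genes in both treatments, and control set 4 is paler blue.

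A test for any difference among the 4 SH2 sets, fitted with a doxycycline term for each kind of cell, called 31 of the 40 genes at an adjusted p under 0.05, beside 13.3% of all genes tested. All 31 were lower in set 4, a direction in which 7.65% of all genes were called. The test was added after the values were seen and does not name a set, so that set 4 is read from the levels and not from the p. Each set of a kind of cell is 1 sort with an untreated and a treated library, so that differences between sorts are judged against the spread within them, and set 4 stands for 1 sort only. In 36 of the 40 genes both SH2 libraries of set 4 lay below all 6 other SH2 libraries, which held for 8.27% of all genes; no member had both above, which held for 9.19%. KIF11, KIF20B, CKS1B and CKS2 were the exceptions. Without the treated SH2 library of set 1 the test called 19 members, beside 1.96% of all genes. Among sets 1 to 3 alone, with both set 4 libraries of these cells left out, it called 6 (CCNB2, CDK1, KIF11, NUSAP1, PTTG1 and TOP2A), a share under the 19.1% of all genes.

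The 4 members with the smallest p-values in the test among SH2 sets were TOP2A, PLK1, CENPE and CCNB2, and the 250 bases before the start of each are shown because transcription of many G2 and M genes is known to depend on short promoter elements there. The sequences are from RefSeq on GRCh38.p14, read 5′ to 3′ on the strand of the gene, and are counted from the RefSeq start; the gene spans given with the values below are those of GENCODE v29 and can begin elsewhere. Capitals mark matches to the cell-cycle homology region (CHR), searched as TTTGAA on both strands, and to the CCAAT box, searched as CCAAT on both strands; the other strand of these reads TTCAAA and ATTGG, and no overlap with other motifs was removed.
TOP2A (chr17:40417897-40418146, minus strand): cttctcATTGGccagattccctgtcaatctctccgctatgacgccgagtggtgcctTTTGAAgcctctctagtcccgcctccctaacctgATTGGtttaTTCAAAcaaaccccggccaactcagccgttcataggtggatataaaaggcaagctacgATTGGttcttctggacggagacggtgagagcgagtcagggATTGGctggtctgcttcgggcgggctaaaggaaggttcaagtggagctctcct
PLK1 (chr16:23678639-23678888, plus strand): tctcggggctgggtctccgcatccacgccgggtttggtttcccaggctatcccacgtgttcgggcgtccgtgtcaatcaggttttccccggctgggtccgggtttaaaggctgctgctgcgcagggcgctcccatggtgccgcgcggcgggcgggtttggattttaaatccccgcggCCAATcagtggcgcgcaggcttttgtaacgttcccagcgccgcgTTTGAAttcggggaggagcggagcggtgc
CENPE (chr4:103198344-103198593, minus strand): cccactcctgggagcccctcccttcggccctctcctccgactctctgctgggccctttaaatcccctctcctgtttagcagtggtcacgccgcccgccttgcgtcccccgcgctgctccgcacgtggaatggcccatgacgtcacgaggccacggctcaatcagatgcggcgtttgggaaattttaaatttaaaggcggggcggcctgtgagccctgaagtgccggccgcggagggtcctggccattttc
CCNB2 (chr15:59104896-59105145, plus strand): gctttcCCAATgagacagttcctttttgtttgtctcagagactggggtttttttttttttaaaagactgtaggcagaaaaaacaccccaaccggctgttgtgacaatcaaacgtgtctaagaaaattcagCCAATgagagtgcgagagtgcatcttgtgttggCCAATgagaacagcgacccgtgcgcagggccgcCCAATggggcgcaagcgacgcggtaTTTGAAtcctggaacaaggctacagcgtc
In PLK1 and CCNB2 the CHR match began 29 bases before the start of the gene. TOP2A and CCNB2 each held 4 CCAAT matches, PLK1 held 1, and the CENPE window held neither motif. Promoters were found for 34 of the 40 genes, in 44 windows of 300 bases that run 50 bases past the start; AURKA, BUB3, TTK, TPX2, UBE2C and BIRC5 had no match in the table. A CHR match was present in 59.1% of the member windows and in 15.2% of all 35116 windows of the table, a CCAAT match in 77.3% and 34.6%, and both in 52.3% and 5.90%. These shares describe letters only, and the members were chosen with their function known.

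Of the 8 genes of cyclin-CDK control, 6 were called in the test among SH2 sets, with a median log2 difference for set 4 of -1.67. CDK1, the kinase that drives entry into mitosis (chr10:60778331-60794852, plus strand), measured 122, 97.0, 80.3 and 27.5 CPM in untreated SH2 cells of sets 1 to 4, 174, 157, 84.3 and 47.2 in treated SH2 cells, 91.6 and 48.1 in untreated control cells of sets 2 and 4, and 112 and 56.9 in treated control cells. Both SH2 libraries of set 4 were the lowest of the 12 for this gene (log2 -1.66, adjusted p = 0.00271). CCNA2, the cyclin of S phase and G2 (chr4:121816444-121823933, minus strand), measured 42.2, 41.2, 46.6 and 16.9 CPM in untreated SH2, 69.1, 77.8, 59.6 and 15.8 in treated SH2, 41.3 and 12.3 in untreated control and 45.5 and 15.3 in treated control cells, with the sets listed in the same order. The 4 libraries of set 4 were the 4 lowest of CCNA2, in both kinds of cell (log2 -1.72 in SH2 cells, adjusted p = 0.0081). CCNB2, a B-type cyclin (chr15:59105078-59125045, plus strand), measured 96.3, 159, 73.8 and 27.5 CPM in untreated SH2, 118, 193, 124 and 31.0 in treated SH2, 61.2 and 23.1 in untreated control and 85.9 and 66.5 in treated control cells. Its lowest library was that of untreated control cells of set 4, followed by both SH2 libraries of that set (log2 -2.06 in SH2 cells, adjusted p = 0.00216).

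CDC25C, a phosphatase that activates CDK1 (chr5:138285265-138338355, minus strand), measured 73.8, 71.8, 34.7 and 13.6 CPM in untreated SH2, 72.9, 62.3, 52.1 and 34.4 in treated SH2, 31.3 and 23.9 in untreated control and 48.1 and 48.5 in treated control cells. Untreated SH2 cells of set 4 were lowest, and treated ones were close to set 3 of the untreated cells (log2 -1.38, adjusted p = 0.0219). CCNB1, the main partner of CDK1, and CDC25B, another of these phosphatases, were called as well, at log2 differences of -1.79 and -1.26. CKS1B and CKS2, small proteins that bind CDKs, were not. CKS1B (chr1:154974653-154979249, plus strand) measured 601, 789, 658 and 378 CPM in untreated SH2, 707, 829.6, 587 and 692 in treated SH2, 402 and 331 in untreated control and 521 and 542 in treated control cells, and its treated SH2 library of set 4 lay within the range of the other sets (log2 -0.40, the smallest among the members, adjusted p = 0.362).

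All 4 mitotic kinases were called, with a median log2 difference of -2.09. PLK1, the Polo-like kinase (chr16:23677656-23690367, plus strand), measured 90.6, 84.5, 100.4 and 16.0 CPM in untreated SH2, 117, 136, 96.5 and 10.4 in treated SH2, 81.6 and 33.6 in untreated control and 88.1 and 49.3 in treated control cells. The 8 SH2 libraries fell into 6 between 84.5 and 136 CPM and 2, those of set 4, at 16.0 and 10.4 (log2 -2.95, adjusted p = 0.00123). AURKB, the Aurora kinase of the chromosomal passenger complex (chr17:8204733-8210600, minus strand), measured 501, 605, 357 and 82.1 CPM in untreated SH2, 620.5, 546, 462 and 223 in treated SH2, 348 and 137 in untreated control and 417 and 302 in treated control cells. After TOP2A it had the widest spread of log2 CPM among untreated SH2 cells, and set 4 was the lowest set in both treatments (log2 -1.84, adjusted p = 0.0109). AURKA, the kinase of the spindle poles, and NEK2, a centrosomal kinase, had log2 differences of -1.86 and -2.31.

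Among the 8 genes of the spindle checkpoint and the anaphase-promoting complex, 4 were called, although both SH2 libraries of set 4 were below the other 6 in all 8. The called genes were CDC20, the activator of the complex, UBE2C, its ubiquitin-conjugating enzyme, PTTG1 (securin), which the complex targets, and BUB1B, a checkpoint kinase. CDC20 (chr1:43358955-43363203, plus strand) measured 74.2, 86.6, 66.4 and 24.1 CPM in untreated SH2, 55.7, 72.5, 60.3 and 7.75 in treated SH2, 39.9 and 26.0 in untreated control and 51.6 and 42.4 in treated control cells. Treated SH2 cells of set 4 were lowest by far, and control cells of set 4 stayed within 1 log2 unit of set 2 (log2 -2.18 in SH2 cells, adjusted p = 0.00477). BUB3, a checkpoint protein (chr10:123154277-123170467, plus strand), measured 269.7, 217, 171 and 169.9 CPM in untreated SH2, 262, 256, 198 and 166 in treated SH2, 145 and 165 in untreated control and 146 and 173 in treated control cells. Its set 4 values were under those of the other SH2 sets, closest to set 3, and the log2 difference of -0.43 did not pass the test (adjusted p = 0.149). TTK, BUB1 and MAD2L1, also of the checkpoint, had log2 differences of -1.17, -1.32 and -0.72 and adjusted p-values of 0.0555, 0.0804 and 0.266.

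Of the 7 motor proteins, 5 were called, with a median log2 difference of -1.01. KIF20A, a kinesin of cytokinesis (chr5:138178719-138187715, plus strand), measured 23.4, 35.6, 33.4 and 7.85 CPM in untreated SH2, 41.1, 55.8, 39.9 and 0.674 in treated SH2, 26.1 and 3.62 in untreated control and 29.8 and 11.8 in treated control cells. It had the largest fitted difference of the 40 (log2 -3.06, adjusted p = 0.0389), and its treated SH2 library of set 4 rests on 2 reads. KIF23, a kinesin of the central spindle (chr15:69414246-69448427, plus strand), measured 12.3, 12.8, 11.7 and 2.11 CPM in untreated SH2, 15.9, 20.5, 14.8 and 4.72 in treated SH2, 12.3 and 5.78 in untreated control and 18.3 and 10.3 in treated control cells. Set 4 was lowest in both SH2 groups, here from 7 and 14 reads (log2 -2.12, adjusted p = 0.0146). CENPE, a kinesin of the kinetochore (chr4:103105806-103198409, minus strand), measured 33.6, 28.5, 42.4 and 5.43 CPM in untreated SH2, 26.4, 37.2, 58.3 and 6.74 in treated SH2, 20.9 and 13.7 in untreated control and 22.4 and 14.1 in treated control cells. Again both SH2 libraries of set 4 were far below the other 6 (log2 -2.59, adjusted p = 0.00158).

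KIF11, the kinesin that separates the spindle poles (chr10:92593286-92655395, plus strand), measured 44.7, 25.5, 15.9 and 14.5 CPM in untreated SH2, 50.7, 45.6, 28.0 and 23.2 in treated SH2, 22.3 and 17.7 in untreated control and 27.9 and 11.5 in treated control cells. Among untreated SH2 cells set 1 was highest and sets 3 and 4 were about equally low (log2 -0.83, adjusted p = 0.0288). KIF20B, a kinesin of late mitosis (chr10:89701610-89774939, plus strand), measured 22.5, 32.0, 26.6 and 13.9 CPM in untreated SH2, 29.7, 29.6, 50.1 and 25.9 in treated SH2, 34.2 and 27.1 in untreated control and 26.6 and 34.0 in treated control cells. Its highest library was the treated one of set 3, and the sets did not differ by the test (log2 -0.69, adjusted p = 0.193). KIF2C, which shortens microtubules, was called at log2 -0.99, and KIF4A, a chromosome-bound kinesin, missed at log2 -1.01 (adjusted p = 0.064).

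All 7 spindle proteins were called, within a narrow range of log2 differences from -2.36 to -1.85. NUSAP1, a microtubule-binding protein (chr15:41332694-41381050, plus strand), measured 151, 99.9, 68.3 and 32.3 CPM in untreated SH2, 189.8, 154, 139 and 33.3 in treated SH2, 96.3 and 43.7 in untreated control and 119.5 and 74.9 in treated control cells. ASPM, a protein of the spindle poles (chr1:197084128-197146694, minus strand), measured 78.7, 58.1, 74.5 and 24.4 CPM in untreated SH2, 106, 105, 146 and 25.6 in treated SH2, 34.6 and 31.5 in untreated control and 26.3 and 37.4 in treated control cells. In both, set 4 was the lowest SH2 set in each treatment, and in ASPM the control libraries of set 4 were near those of set 2 (log2 -1.95 and -1.85 in SH2 cells, adjusted p = 0.00249 and 0.00477). TPX2, PRC1, HMMR, DLGAP5 and CKAP2 were the others.

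TOP2A, the topoisomerase that untangles chromosomes (chr17:40388516-40417950, minus strand), measured 1157, 791, 788 and 138 CPM in untreated SH2, 1476, 806, 1354 and 183 in treated SH2, 869 and 338 in untreated control and 1004 and 509 in treated control cells. It had the smallest p of the 40 in the test among SH2 sets (log2 -2.70, adjusted p = 0.000454), and both SH2 libraries of set 4 were below every other library. CENPF, a kinetochore protein, and BIRC5 (survivin), of the chromosomal passenger complex, were called at log2 -2.06 and -0.98, and CENPA, the centromeric histone, was not at -1.36 (adjusted p = 0.07). Both genes of cytokinesis were called, ANLN, a scaffold of the contractile ring, at -1.84 and ECT2, which activates RhoA, at -2.36. The members given here that the rule for named genes does not cover, such as PLK1, BUB3 and KIF20A, were chosen after their values were seen.

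Control cells were sorted in sets 2 and 4 only, so that set 4 was compared with set 2 in both kinds of cell. The median of the 40 was -1.90 on the log2 scale in SH2 cells, with all 40 lower in set 4, and -0.50 in control cells, with 33 lower, beside 0.00 and 0.01 for all genes. In control cells, again with 1 sort on each side, 2 members were called, beside 1.73% of all genes: CCNA2 (log2 -1.66 ± 0.32, adjusted p = 0.0182) and TOP2A (-1.17 ± 0.26, adjusted p = 0.0426). With any 1 of the 4 control libraries left out none was called. Leaving out 1 SH2 library of sets 1 to 3 left 0 or 1 called, and leaving out either SH2 library of set 4 brought the count to 13, beside 9.16% (untreated left out) and 9.27% (treated left out) of all genes. The T-cell genes CD3D, CD3E and CD3G were called in the same test, at log2 differences of -4.61 to -4.41.

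**Figure D2:**
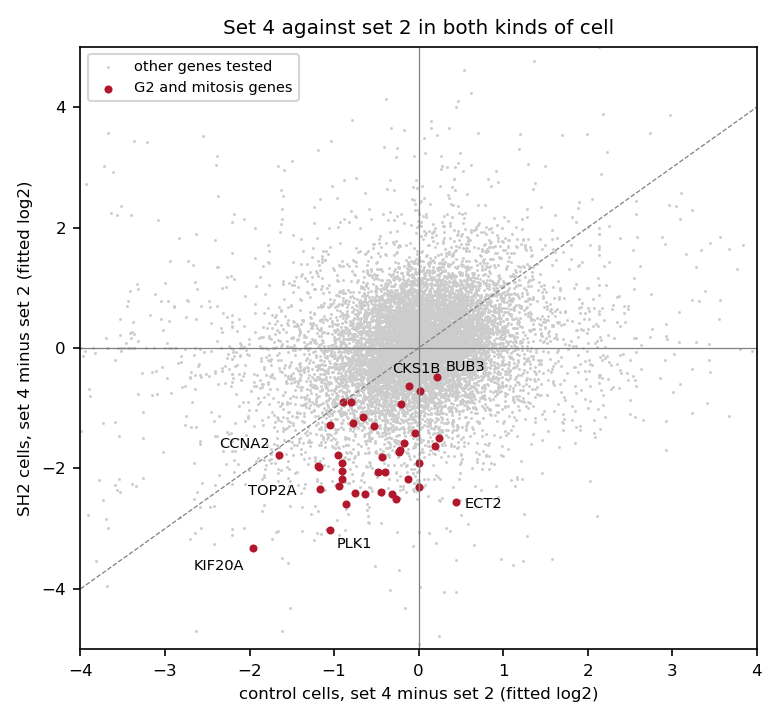
Each point is 1 gene, with the fitted log2 difference of set 4 from set 2 in control cells on the x axis and in SH2 cells on the y axis; red points are the 40 G2 and mitosis genes, grey points the other genes tested, and 116 of those lie outside the range drawn. All red points lie below the dashed line of equal differences, with KIF20A lowest and BUB3 highest.

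The difference between set 4 and set 2 was more negative in SH2 than in control cells in 40 of 40 genes, with a median of -1.37 log2 units between them. In the test of this difference itself, edgeR called none of the 40, beside 0.125% of all genes, and 25 had an unadjusted p under 0.05, beside 12.6% of all genes, the smallest being those of ECT2 (log2 -3.01 ± 0.58) and PRC1 (-2.24 ± 0.44), both with an adjusted p of 0.0658. DESeq2 called 6 (CENPF, CKAP2, ECT2, PLK1, PRC1 and PTTG1), beside 0.884% of the genes to which it gave an adjusted p. Without the untreated SH2 library of set 4 edgeR called 23, beside 13.9% of all genes, and without the treated one 5, beside 0.795%. Of the 40 genes, 26 were lower in set 4 than in set 2 in all 4 groups. The share of all genes for which this held was not computed, so that this count has no background beside it.

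Other cell-cycle lists were read against the 7.65% of all genes called lower and the 5.62% called higher in set 4 of the SH2 cells; no test compared one list with another. Of 27 kinetochore and checkpoint genes tested, 15 were called, all lower in set 4, with a median log2 difference of -1.15. Among 21 further genes of the spindle and cytokinesis 10 were called lower (median -1.01), among 18 of cohesin and condensin 7 (median -0.41), and among 20 of mitotic entry and its transcriptional control 6 (median -0.48). SPC24, of the kinetochore, had an adjusted p of 0.00297, and ESPL1, the protease that cuts cohesin, a log2 difference of -2.03 (adjusted p = 0.0151). MKI67, the proliferation marker Ki-67, measured 178, 238, 219 and 54.3 CPM in untreated SH2, 262, 303, 411 and 92.0 in treated SH2, 186 and 58.6 in untreated control and 212 and 109 in treated control cells, low in both SH2 libraries of set 4 and in control cells of set 4 (log2 -1.88 and -1.31, adjusted p = 0.00249 and 0.0282).

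Of 16 subunits and partners of the anaphase-promoting complex 1 was called, lower, a share like that of all genes, and the median was 0.31. Among 22 genes of proliferation and DNA replication 8 were called lower in set 4 and 1 higher (median -0.36). Their summed level was 3372, 2549, 1515 and 1514 CPM in untreated SH2 cells of sets 1 to 4. In treated SH2 cells it was 3478, 2457, 1772 and 2086 CPM, so that set 3 was as low as set 4 or lower. Both SH2 libraries of set 4 lay below the other 6 in 2 of the 22 (9.09%), beside 8.27% of all genes. FOXM1, a transcription factor of G2 genes, was lower in set 4 (log2 -1.01, adjusted p = 0.0261), and MYBL2, another, did not pass (-0.12, adjusted p = 0.349). Among 12 CDK inhibitors and p53 targets 3 were called, all higher in set 4, with 7 positive and 5 negative differences and a median of 0.12; CCNG1 at -1.29 and GADD45A at -0.41 did not pass (adjusted p = 0.0997 and 0.221). CDKN1A, the CDK inhibitor p21, measured 55.3, 75.0, 81.9 and 164 CPM in untreated SH2, 48.6, 64.9, 91.6 and 126 in treated SH2, 53.6 and 104 in untreated control and 41.0 and 74.1 in treated control cells. It was highest in set 4 in both SH2 groups and higher in set 4 than in set 2 of the control cells (log2 1.08 in SH2 cells, adjusted p = 0.00871).

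**Figure D3:**
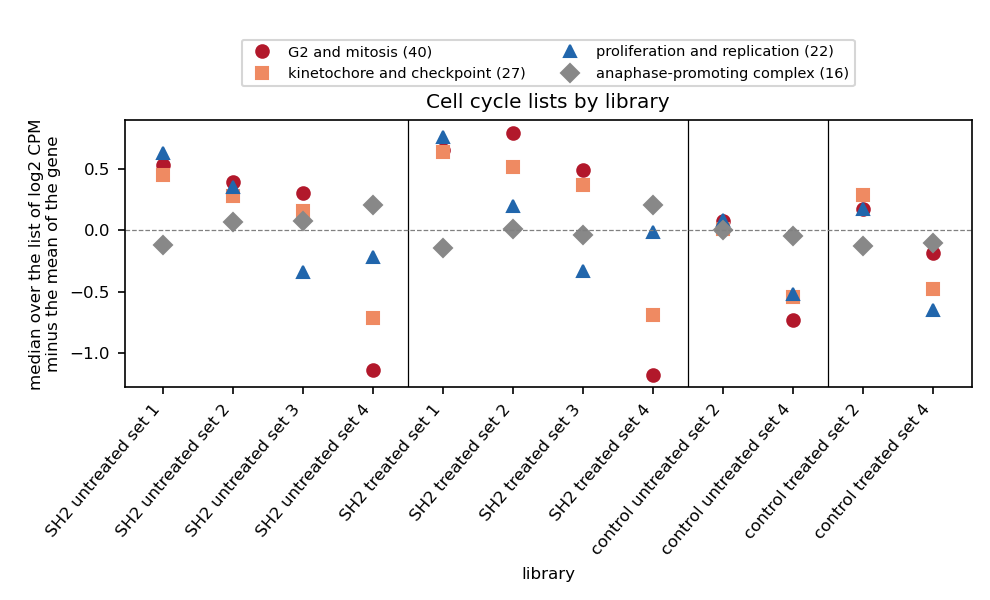
Points give, for each of the 12 libraries, the median over a gene list of log2 CPM minus the gene's mean over the libraries, for the 40 G2 and mitosis genes and 3 other lists. The G2 and mitosis genes stand at -1.14 and -1.18 in the 2 SH2 libraries of set 4, and the anaphase-promoting complex at 0.21 in both.

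The SH2 libraries of set 4 were not shallow, with 3335687 and 2975128 reads in genes. Chi-square per degree of freedom, a measure of how far 2 libraries differ, was 47.7, 36.1 and 34.6 between treated SH2 cells of set 4 and of sets 1 to 3. Among those sets it was 8.39 to 26.3. In untreated SH2 cells it was 19.7 to 22.9 for pairs with set 4 and 13.9 to 29.6 for the others. Mitochondrial genes took 5.97% and 5.53% of their reads, within the range of 2.82% to 6.40% in the other 10 libraries. The summed level of 8 B-cell genes was 1680.1 CPM in untreated and 1013 CPM in treated SH2 cells of set 4, beside 810.5 to 1932 CPM in the other SH2 libraries. Within set 4, 7 of the 8 were lower in treated than in untreated SH2 cells, with a median of -1.40 log2 units, against 0.07, 0.00 and -0.07 in sets 1 to 3. VPREB1, of the surrogate light chain of precursor B cells, had 745 counts untreated and 123 treated in set 4, IGLL1, its partner, 727 and 101, and EBF1, a B-cell transcription factor, 251 and 81. In the test among SH2 sets 4 of the 8 were called, 2 lower and 2 higher in set 4. The T-cell genes summed to 46.5 and 103 CPM in these 2 libraries. The part of B-cell and T-cell genes in the set 4 difference was not tested.

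The comparison the study was built for, treated against untreated SH2 cells, asks how these genes stand when IGF2BP1 is lowered. In the fit with 1 term per group, which does not use the pairing of libraries by set, edgeR called none of the 40, beside 0.0167% of all genes (2 genes). None had an unadjusted p under 0.05 in that fit. DESeq2 called none of the 40 either, beside 0.161% of the genes to which it gave an adjusted p (17 genes). Fitted differences were positive in 34 and negative in 6, with a median log2 fold change of 0.23 (all genes 0.03) and a range from -0.36 to 0.70. The median was 0.19 without both SH2 libraries of set 4. Leaving out only 1 of that pair, whose partner then stands in 1 arm alone, gave -0.01 without the untreated and 0.49 without the treated library. With the set number as a block, shared by SH2 and control cells, the median was 0.22 and again no member was called, while 6 genes were (0.0501%). Set differences that are unlike in both kinds of cell, as those of these genes were, stay in the spread of the block fit. Doxycycline was not tested in the fit with separate sets for each kind of cell. In the block fit 4 members had an unadjusted p under 0.05, as did 9.17% of all genes. These were KIF11 (0.0171), CDK1 (0.0338), CCNA2 (0.0346) and NUSAP1 (0.0443), all with positive differences of 0.50 to 0.62 and adjusted p-values from 0.462 to 0.531. No member had treated and untreated SH2 cells that did not overlap, beside 3.41% of all genes. In the fit without the block the fitted differences of all 40 genes were under 2-fold. In simulated data that fit called 6% of the genes changed 2-fold between treated and untreated SH2 cells.

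Within sets, the median member was higher with doxycycline by 0.28, 0.30, 0.19 and 0.06 log2 units in SH2 sets 1 to 4, and by 0.11 and 0.43 in control sets 2 and 4. In set 4 of the SH2 cells the single genes scattered most, from -2.51 (CKS2) to 1.43 (AURKB). Higher in 4 of 4 SH2 sets were 9 members (CDK1, CCNB2, TOP2A, KIF11, KIF23, CENPF, TPX2, NUSAP1 and ASPM), beside 10.6% of all genes. Of these, 7 were higher in both control sets too, all but KIF11 and ASPM. Over the 40 genes the difference of set 4 from the other SH2 sets had a median size of 1.82 log2 units, against 0.447 for the mean size of the doxycycline difference within a set.

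**Figure D4:**
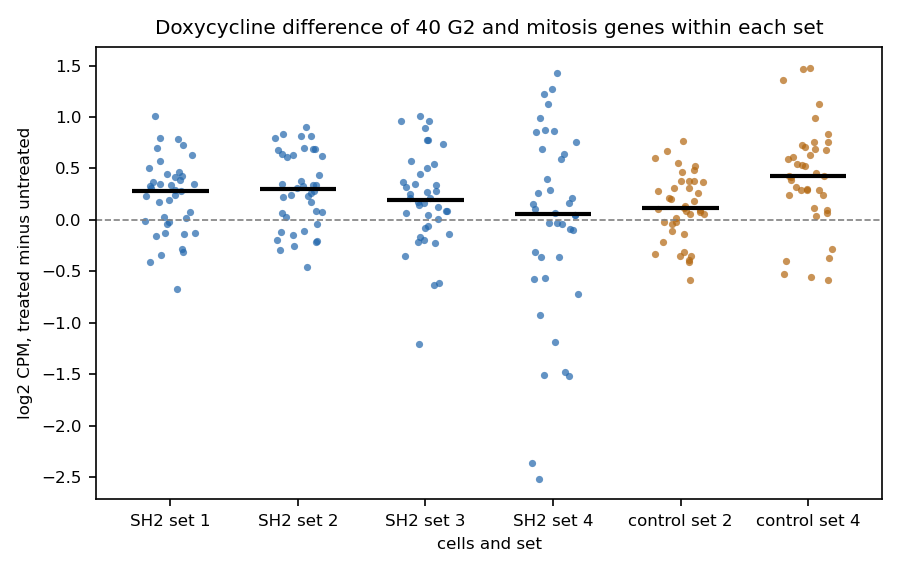
Each point is 1 of the 40 genes and gives log2 CPM of treated minus untreated cells within 1 set, and bars are medians. Medians lie between 0.06 and 0.43 in the 6 pairs, and SH2 set 4 has the widest spread.

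The largest fitted doxycycline differences in SH2 cells included those of spindle and motor genes. ASPM stood at 0.70 ± 0.45 (SE), CCNA2 at 0.60 ± 0.51, KIF11 at 0.56 ± 0.40, NUSAP1 at 0.55 ± 0.51, KIF23 at 0.53 ± 0.53, KIF20B at 0.51 ± 0.30 and CDK1 at 0.50 ± 0.47. KIF20B had the smallest unadjusted p of the 40, 0.111, and all these genes had an adjusted p of at least 0.983. CDC20 was the only member lower with doxycycline in 4 of 4 SH2 sets, beside 10.1% of all genes, at -0.41, -0.25, -0.14 and -1.52 log2 units in sets 1 to 4 (fitted -0.36 ± 0.51, adjusted p = 0.986). With the set as a block its difference was -0.46 (adjusted p = 0.73), and it was 0.00 in the unpaired fit without the treated SH2 library of set 4, where the low untreated library of that set had no partner.

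No gene of the 7 other cell-cycle lists was called in SH2 cells either. FOXM1, which had a fitted difference of 0.86 ± 0.33 (unadjusted p = 0.0205, adjusted p = 0.983), and E2F7 at 1.27, E2F4 at -0.64, SPC24 at 0.94, ZWILCH at 0.27 and CENPO at 0.50 had the smallest p-values among genes of mitotic entry and of the kinetochore. Among cohesin and condensin genes these were CDCA5 at 0.76, ESPL1 at 0.75 and SMC4 at 0.32, and among further spindle genes CIT at 1.09, HAUS8 at 0.70 and CKAP5 at 0.59. In control cells FOXM1 differed with doxycycline by 0.83, E2F7 by 0.85, E2F4 by 0.07, SPC24 by 0.74, ZWILCH by 0.49 and CENPO by -0.03. There CDCA5 differed by 0.77, ESPL1 by 0.83, SMC4 by 0.18, CIT by 0.92, HAUS8 by 0.60 and CKAP5 by 0.04, and none was called. In SH2 cells the anaphase-promoting complex gave values of both signs, with ANAPC15 at 0.76, ANAPC10 at -0.77 and ANAPC1 at -0.38, as did MCM5 at 0.67, GINS2 at -0.59 and CCNE1 at -0.67 of replication, and SESN1 at 1.23, GADD45A at -0.87 and CCNG1 at -0.51 of the p53 targets.

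Control cells gave similar medians. No member was called by edgeR or DESeq2, beside 0% of all genes, and none had an unadjusted p under 0.05. The median was 0.23 (all genes 0.01), with 32 positive and 8 negative, and it came to -0.09 when untreated control cells of set 4 were left out and to 0.67 when those of set 2 were, each time with the treated partner kept. With the set as a block the median was 0.25. CCNB2 had a fitted difference of 0.86 ± 0.77, CDC25C of 0.81 ± 0.60 and CKS1B of 0.54 ± 0.35. CCNB1 and CKS2 were lower in both control sets (23.1% of all genes were), and 23 members were higher in both (25.3%).

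The difference between the responses of SH2 and control cells was positive in 20 members and negative in 20, with a median of 0.01. None was called by edgeR, beside 0% of all genes, and none had an unadjusted p under 0.05 there. DESeq2 called none of them either, beside 0.0251% of the genes to which it gave an adjusted p (3 genes). CDC20, lower in the SH2 sets and higher by 0.36 and 0.68 in the control sets, differed by -0.87 ± 0.90. ASPM differed by 0.76 ± 0.79 and KIF20B by 0.53 ± 0.52. Leaving out single libraries moved the median from -0.50, when untreated control cells of set 2 were left out, to 0.33, when those of set 4 were.

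Compared directly, SH2 cells had higher fitted levels than control cells in 37 of 40 members, without doxycycline (median log2 0.46, all genes 0.03) and with it (0.38, all genes 0.04). None was called by edgeR, beside 7.84% and 11.1% of all genes. Without doxycycline 3 members had an unadjusted p under 0.05, beside 2428 of all 11968 genes, and with it 2 did, beside 2992. Both are smaller shares than those of all genes. DESeq2 called none without doxycycline and ASPM with it (log2 1.59, adjusted p = 0.038), beside 14.6% of the genes to which it gave an adjusted p in treated cells. The groups did not overlap for BUB1 and BUB3 without doxycycline and for KIF2C, KIF4A and CKS1B with it, where 32.9% and 31.9% of all genes did not.

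These differences between SH2 and control cells turned around with the set. In set 2, 34 of the 40 members were higher in untreated SH2 than in untreated control cells (median 0.46 log2 units) and 37 in treated cells (0.68). In set 4, 28 were lower in untreated SH2 cells (median -0.53) and 33 in treated ones (-0.94). With a term for each set in the fit, the medians were 0.02 without and -0.13 with doxycycline, and 21 and 16 members were positive; none was called, while 1505 and 2171 genes were. Without both SH2 libraries of set 4, edgeR called 5 members higher in untreated SH2 cells (ASPM, BUB1, CDC20, KIF2C and KIF4A) and 3 in treated ones (ASPM, BUB1 and KIF4A), beside 8.78% and 12.4% of all genes called in either direction and 3.68% and 5.36% called higher. ASPM then differed by 1.91 log2 units in treated cells (adjusted p = 0.00129). These fits kept the control libraries of set 4, in which 33 of the 40 were lower than in those of set 2.

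**Figure D5:**
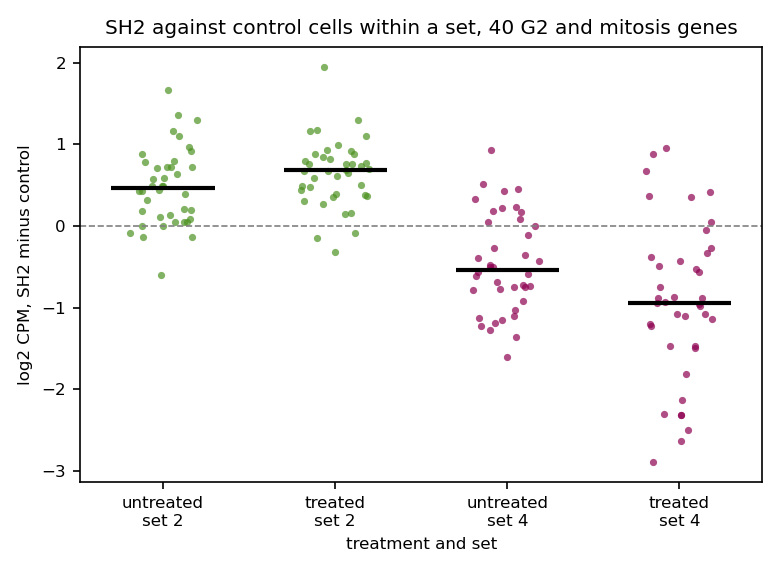
Each point is 1 of the 40 genes and gives log2 CPM of SH2 minus control cells within 1 set and treatment, and bars are medians. Medians are 0.46 and 0.68 in set 2 and -0.53 and -0.94 in set 4.

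Some members share positions with other genes. CENPA, with 698 counts over all libraries, overlaps SLC35F6, with 448, on the same strand, where strand cannot separate the reads. Also on the same strand, BUB1B overlaps BUB1B-PAK6, which had 0 counts. NUSAP1 and PRC1 overlap AC087721.2 and AC068831.7 there, which are not among the genes counted. CDC25C, CCNA2, KIF20A and KIF4A overlap FAM53C, EXOSC9, CDC23 with BRD8, and PDZD11 on the opposite strand, and whether the counting used strand is not given in the sources used here. Reads that fit several genes were counted for none of them, so that reads in a shared stretch may be missing from these counts. For genes on opposite strands this holds only if strand was not used. Processed copies of members held few reads: CKS1BP1 had 4 counts over all libraries, the intronless copy PTTG2 had 3 and the other copies searched had 0, so that reads that fit a member and its copy equally well would be missing from both.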

How the data were processed

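Reads were counted per gene with HTSeq by the authors, and the deposited counts are whole numbers. The submitters' processing notes list FastQC, STAR and DESeq2 too, with the build hg38 (GRCh38). For versions, annotation and strand, nothing is given in the sources used here. Each table held 64253 gene IDs and 5 summary lines, which were left out; reads with no unique alignment took 42.2% to 63.8%, those outside genes 3.25% to 7.73% and those that fit several genes 1.11% to 1.62% of each table. The authors also deposited a normalized signal for 26231 genes, which was used for gene names. Its values are the counts times a constant of each library: 100% came out whole at a tolerance of 0.01, and edgeR on these recovered reads called 2 genes for doxycycline in SH2 cells. Gene positions are from GENCODE v29.

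The analysis used edgeR 4.0.16 in R 4.3.3: filterByExpr by group (minimum count 10), TMM scaling, a robust quasi-likelihood fit of all 12 libraries with 1 term per group, and Benjamini-Hochberg adjustment over 11968 genes at 0.05. The biological coefficient of variation was 0.376. A second fit, added after the values were seen, had a term for each set of each kind of cell and a doxycycline term for each. Levels are CPM, and log2 CPM has a prior count of 3. Both fits were tested on simulated data, with 100 genes changed at each size. The first called 6% of 2-fold and 72% of 4-fold changes between treated and untreated SH2 cells. The second called 19% of 2-fold and 80% of 4-fold changes in SH2 set 4.

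Members and lists were chosen with earlier results of these data known. One gene of the B-cell marker list is not reported here and was left out of its sum. Values in every library were to be given for members called in any of the 5 comparisons, for the members with the smallest p (5 in SH2 cells, 3 in control cells, 3 for the difference), for up to 5 in each direction that moved alike in 4 of 4 SH2 sets, and for the 3 with the widest spread in untreated SH2 cells; of each other list, the 3 genes with the smallest p, and MKI67, FOXM1, MYBL2, CDKN1A and IGF2BP1. The labels give the set numbers. Across genes, deviations of a library from its group mean correlated at 0.188 to 0.663 between untreated and treated SH2 libraries of the same set and at -0.548 to 0.272 between those of different sets, so the sets were taken to pair the samples. The alternatives were DESeq2 1.42.0 and its size factors, no filter, only the libraries compared, the set as a block, limma-trend (limma 3.58.1) on the deposited signal and leaving out libraries.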

Additional observations from a re-analysis of the deposited data

Results flagged for a closer look

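Groups of 4 libraries were searched for a single library far from the other 3, by Dixon's test, over the 40 members and their median in both SH2 groups (82 searches). Chance alone marks about 1 group in 20, and the members are not independent of each other. Of the 82, 11 passed, and in 10 of these the library was the lowest and belonged to set 4. The median deviation of the 40 genes from their means over the libraries was -1.14 in untreated and -1.18 in treated SH2 cells of set 4, each far below the other 3 sets. Among members named by the rule, KIF23 stood at 2.11 CPM in untreated SH2 cells of set 4, below the other 3 sets. KIF20B stood at 50.1 CPM in treated SH2 cells of set 3, above the other 3 sets. What sets these libraries apart was not tested.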

How the results depend on the processing

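Of 852 values recomputed under other settings, 743 were marked the same, 10 turned around and 99 moved. For single genes (392 of 397 values the same) this took the direction and the outcome of the test, and not the size. Medians were marked the same within their spread between replicates, which was 0.96 log2 units for both comparisons of SH2 with control cells. Counts were marked the same when close in ratio. No member was called for doxycycline in SH2 cells, in control cells or for the difference between them, under any setting run. None of these settings paired the libraries by set within SH2 cells alone, so that set differences particular to SH2 cells stayed in the spread. Without the filter on low counts, 24675 genes were tested. Genes called were 47 for doxycycline in SH2 cells, 3 in control cells and 3 for the difference between responses. For untreated and treated SH2 against control cells they were 1449 and 1879. Among SH2 sets they were 2856, between control sets 576, and for the difference of sets 4 and 2 between kinds of cell 292. Members called were 1 for treated SH2 against control cells (ASPM, beside 7.61% of genes tested), 6 between control sets (2.33%) and 14 for that last difference (1.18%). DESeq2 called 17, 3 and 75 genes for the SH2 response, the difference between responses and the last difference, with 6 members in the last, and 1 member (ASPM) for treated SH2 against control cells. With only the libraries compared, genes called were 0 for the SH2 response, 789 for treated SH2 against control cells, 996 among SH2 sets and 1053 between control sets. The last held 12 members, beside 9.98% of the genes tested there. Without both SH2 libraries of set 4, 1 gene was called for the SH2 response and 1093 between control sets. The latter held 13 members, beside 9.3% of all genes. Members called were 6 among SH2 sets, 5 for untreated and 3 for treated SH2 against control cells, beside 19.1%, 8.78% and 12.4%.

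With the set as a replicate block, 0 members were called in any of the 5 comparisons, and 4 had an unadjusted p under 0.05 for the SH2 response. Genes called with this block, which SH2 and control cells share, were 6 for the SH2 response, 1 for the difference between responses, 1505 for untreated and 2171 for treated SH2 against control cells.

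Leaving out 1 library at a time gave 0 to 3 genes for the SH2 response, 343 to 1202 for untreated and 645 to 1462 for treated SH2 against control cells, 235 to 4459 among SH2 sets, 1 to 1096 between control sets and 0 to 1656 for the difference of sets 4 and 2. Members called ran from 0 to 1 for untreated and 0 to 2 for treated SH2 against control cells, 19 to 34 among SH2 sets, 0 to 13 between control sets and 0 to 23 for the last difference. The highest member counts for untreated and treated SH2 against control cells, 1 and 2, were reached without the treated SH2 library of set 4. They stood beside 10.2% and 12.4% of all genes. Member medians ran from -0.0067 to 0.49 for the SH2 response, -0.0867 to 0.67 for the control response, -0.50 to 0.33 for the difference between responses, -2.12 to -1.64 among SH2 sets and -1.59 to -1.04 for the last difference. Fitted SH2 responses of single genes that turned around ran from -0.0749 to 0.57 for AURKB, -0.63 to 0.0022 for CDC20, -0.12 to 0.47 for CDC25C and -0.23 to 0.57 for CENPE. The cause of these shifts was not tested. Depth limits the lowest members: KIF23 and KIF20A had 7 and 2 counts in single libraries of SH2 set 4.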
